A study of Mus musculus with 6 samples.

Results

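Within the cells that express the wildtype chimera, 105 of the 23420 genes in the count table were far more abundant in culture C than in cultures A and B. They were chosen by a rule on the measured values themselves: at least 20 CPM (the count scaled to a library total of 1000000) in WT C, and a level, as CPM plus 0.5, at least 8 times that of both other β1-WT-GFP cultures. Of the 7073 genes at 20 CPM or more in culture C, they are 1.48%, and all 105 are annotated as protein coding. The height of culture C over cultures A and B is therefore the basis of the choice and is given as a description, with no test, while the 3 β1-K794Q-GFP cultures played no part in it.

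The cells are mouse embryonic endothelial eEnd2 cells stably transfected with human Integrin-β1A carrying GFP in its extracellular part, driven by a short human β-actin promoter. The chimera was either wildtype (β1-WT-GFP) or carried the K794Q change, glutamine in place of a lysine of the cytoplasmic tail, which mimics a permanently acetylated lysine (β1-K794Q-GFP). Each form was sequenced in 3 untreated cultures, here called WT A, WT B and WT C and K794Q A, K794Q B and K794Q C, and all 6 keep their own mouse Integrin-β1. The transfected cells were sorted for GFP into a low and a high population, and the labels do not name the population behind each culture, nor whether a population came from 1 clone. Cells were lysed at confluence and ribosomal RNA was depleted, and p-values measure the spread between these cultures.

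WT C was the deepest library, with 15287191 counts over 10918600 in WT A and 9589826 in WT B, and the K794Q libraries held between 10203916 and 11197729. It also stood apart from the cultures that share its construct, since 148 genes differed at least 2-fold between WT A and WT B, but 2883 differed between WT A and WT C, and 2728 between WT B and WT C. The β1-K794Q-GFP cultures differed among themselves too, by 1021 to 2707 genes. Read against the other cultures of its own form, the same rule picked 0 genes in WT A and WT B, and 3, 73 and 21 genes in K794Q A, B and C, of which 0, 2 and 6 are among the 105. The opposite rule, with WT C at least 8 times under both other cultures, held for 108 genes.

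Endothelial markers were abundant in every culture, though not each of them. In K794Q B 2 of the 18 listed had 3 counts or fewer, Cldn5 with 0 and Sox17 with 3, as had Vwf in WT A, with 3. Pecam1 and Cdh5 were highest of the 6 cultures in K794Q B, at 2550 and 3614 CPM. The summed level of 18 endothelial markers lay between 10670 and 17130 CPM and was 11120 CPM in WT C, and 0 of the 18 are among the 105 genes. Of the 18, WT C lay under both WT A and WT B for 10 and over both for 8. Among the lower were Cldn5, a tight junction protein, with 279, 263 and 4.45 CPM in WT A, B and C, the transcription factors Erg (634, 622 and 214 CPM) and Sox18 (259, 233 and 70.7 CPM), Egfl7, Plvap, Tie1 and Tek. Among the higher were Sox17 (18.8, 22.5 and 117 CPM), Cdh5 (1401, 1632 and 2092 CPM), Kdr (813, 832 and 1084 CPM), Flt1, Emcn, Eng and Ptprb. The summed level of 20 fibroblast and mesenchymal genes was 5338 CPM in WT C and 1952 to 3942 CPM in the other 5 cultures. Most of that sum was Vim and S100a4. Others of the list were also higher in WT C, with 6, 7 and 236 counts of the receptor Pdgfra in WT A, B and C, 1, 1 and 85 of the collagen Col1a1 and 2, 2 and 44 of Col3a1. WT C lay over both WT A and WT B for 9 of the 20 and under both for 2. The 2 lower were Prrx1, with 192, 202 and 53.1 CPM in WT A, B and C, and Fap, with 23, 18 and 1 counts. Of the list, 10 genes, among them Dcn, Lum, Postn, Thy1 and Twist1, had 3 counts or fewer in each of the 6 cultures. The 12 neural and glial markers summed to 587 CPM in WT C, over 67.2 to 376 CPM elsewhere, largely through Nes, Stmn2 and Ncam1, with Sox10 and Sox2 at 0 counts in all 6. Stmn2 is 1 of the 105 genes, so its part of this sum, 257 CPM in WT C, follows from the choice. Nes was higher in K794Q B, at 370 CPM, than in WT C, at 198 CPM. Epithelial markers summed to at most 2.41 CPM in any culture. Smooth muscle and pericyte markers summed to 588.5, 605.0 and 430.1 CPM in WT A, B and C and to 369 to 830.0 CPM in the β1-K794Q-GFP cultures. In the last list the low-count markers Pdgfrb, Tagln and Acta2 had 33, 26 and 17 counts in WT C and at most 4, 3 and 0 in the other 5 cultures. WT C lay over both WT A and WT B for 6 of the 14 listed and under both for 3. The 3 lower were Smtn (185, 126 and 43.5 CPM in WT A, B and C), Mcam (404, 479 and 381 CPM) and Myh11 (4, 3 and 1 counts). The part of other cell types in the levels below was not tested, and in bulk RNA more cells of a type and more RNA per cell cannot be told apart.

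Endothelial cells hold on to their surroundings through integrins, which bind fibronectin and other matrix proteins outside and couple to the actin skeleton inside. Spreading, stretch and loss of cell contacts let the co-activators Yap and Taz enter the nucleus, where they bind TEAD factors and switch on genes such as Ctgf, Cyr61 and Ankrd1. Growth factor signals through the ERK kinases act on other targets, among them the immediate early genes of the Fos and Egr families, and TGF-beta signals raise inhibitory Smads and several matrix genes. The 105 genes include members of each of these groups, and they are described below by their role.

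Sequence upstream of the start site is shown for 6 of the genes because Yap targets and Fos family genes stand among the 105, and the letters their partner factors bind can be looked up. RefSeq promoters (GRCm38.p6, 250 bases before each annotated start) were found for 73 of the 105 genes. The TEAD motif GGAATG, read on both strands and so also as CATTCC, is in capitals in the first 4 stretches, and the AP-1 motif TGANTCA, its own reverse complement, in the last pair. All are written 5′ to 3′ on the strand of the gene. Cyr61 is listed there under its newer name Ccn1 (chr3:145650063-145650108, minus strand), Ankrd1 lies at chr19:36119942-36120074 (minus), Ajuba at chr14:54577800-54577867 (minus), Edn1 at chr13:42301249-42301294 (plus), Plaur at chr7:24462394-24462440 (plus) and Sprr2b at chr3:92316490-92316536 (plus).
Cyr61: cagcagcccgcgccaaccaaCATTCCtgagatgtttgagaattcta
Ankrd1: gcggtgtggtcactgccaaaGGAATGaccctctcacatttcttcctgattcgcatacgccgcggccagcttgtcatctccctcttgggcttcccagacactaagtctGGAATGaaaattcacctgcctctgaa
Ajuba: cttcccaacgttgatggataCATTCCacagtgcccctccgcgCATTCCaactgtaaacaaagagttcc
Edn1: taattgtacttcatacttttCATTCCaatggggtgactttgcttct
Plaur: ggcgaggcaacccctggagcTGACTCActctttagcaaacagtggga
Sprr2b: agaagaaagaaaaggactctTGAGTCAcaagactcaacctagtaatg
The TEAD letters occurred upstream of 13 of the 73 genes, or 17.8%, beside 14.4% of 27025 genes with a promoter and 12.4% of those at 20 CPM or more in WT C. The AP-1 letters occurred upstream of 9, or 12.3%, beside 7.82% and 5.28%. The EGR motif, GCG then T or G then GGGCG on either strand, occurred upstream of 6, or 8.22%, beside 3.47% and 7.6%, and the CArG box bound by Srf upstream of 0, beside 1.62% and 1.52%. A match describes the letters in this window and not binding.

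Across the 105 genes the level in WT C was a median of 14.33 times the higher of WT A and WT B, and ranged from 8.03 to 578 times. The ratio reached 16 for 46 genes and 100 for 5, which are Thbs1 (578), Ctgf (220), Cyr61 (127), Edn1 (113) and Cxcl12 (105), and Egr1 (84.9), Mmp2 (51.5), Fos (48.3) and Ankrd1 (47.2) were among the next. WT A and WT B lay close together, a median of 1.18-fold apart and at most 2.47-fold. Every gene had at least 315 counts in WT C and at least 1 count in WT A and in WT B. For 6 genes the count was 3 or fewer in WT A or WT B, and of these only Wwc1, a regulator of the Hippo kinases, was that low in both, with 2 and 1 counts against 356 in WT C. Together the 105 genes took 0.163% and 0.17% of the counts in WT A and WT B, 3.41% in WT C, and 0.536%, 0.744% and 0.8% in K794Q A, B and C.

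**Figure D1:**
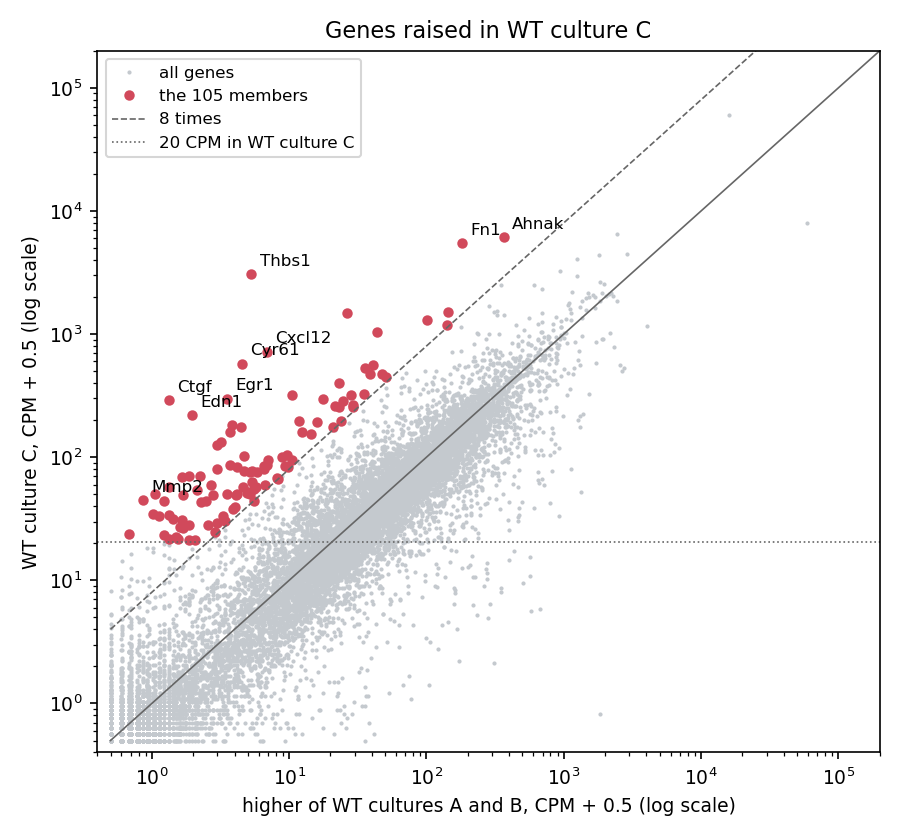
Level of every gene in WT C (vertical) against the higher of WT A and WT B (horizontal), as CPM plus 0.5 on log scales. The solid line marks equal levels, the dashed line 8 times and the dotted line 20 CPM, and the 105 chosen genes (red) lie above both limits by construction, with Thbs1 farthest from equality.

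At the limits of the rule, genes inside and outside had similar values. Just inside the limit of 8 times lay Sema3c at 8.03, Tgfb2 at 8.06 and Ctps at 8.14, and just outside it Rrm2 at 7.89, Cnn2 at 7.78 and Gpr126 at 7.76. At the level of 20 CPM, Plekhh2 at 20.6, Nmnat2 at 20.9 and Sytl5 at 21.0 CPM were inside, and Lancl3 at 19.3, Arhgap20 at 18.9 and Col12a1 at 17.9 CPM outside.

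Structural proteins of the matrix, and matricellular proteins, which sit in it and modulate adhesion, held the 3 highest ratios, those of Thbs1, Ctgf and Cyr61, although the median ratio of this group, 12.37, was under that of all 105 genes. Thbs1, which encodes thrombospondin-1 (mm10 chr2:118111876-118127133), had 1.65, 4.8 and 3063 CPM in WT A, B and C and 3.82, 6.88 and 65.1 CPM in K794Q A, B and C. WT C was the highest of the 6 by far, and per kilobase of exon Thbs1 was the most abundant of the 105 genes there, at 504 CPM per kb. Fn1, which encodes fibronectin (chr1:71585520-71653200), had 182, 179 and 5479 CPM in WT A, B and C and 297, 1572 and 554 CPM in K794Q A, B and C. All 3 β1-K794Q-GFP cultures were over WT A and WT B and under WT C, and per kilobase Fn1 came next at 469 CPM per kb. Bgn, a small proteoglycan, had 130, 143 and 1503 CPM in the β1-WT-GFP cultures but 0.882, 513 and 7.86 CPM in the β1-K794Q-GFP cultures, so that K794Q A and K794Q C lay under every β1-WT-GFP culture and K794Q B over WT A and WT B.

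The matricellular pair Ctgf and Cyr61 came next to Thbs1 by ratio. Ctgf (chr10:24595442-24598683) had 0.824, 0.73 and 290.4 CPM in WT A, B and C, and 1.67, 12.6 and 18.1 CPM in K794Q A, B and C. Cyr61 (chr3:145646976-145649981) had 4.03, 2.29 and 573 CPM in the first and 6.37, 7.77 and 24.0 CPM in the second. Both genes had their second highest level in K794Q C, well under WT C. In the basement membrane and elastic fibre group, Fbln2 had 15.2, 21.2 and 262 CPM in the β1-WT-GFP cultures and 1.37, 5.81 and 0.542 CPM in the β1-K794Q-GFP cultures. Efemp1, another fibulin, had 4.12, 3.96 and 56.7 CPM and then 0, 0.357 and 0 CPM, and Gpc4, a heparan sulphate proteoglycan of the cell surface, had 2.02, 2.5 and 28.7 CPM and then 0, 1.07 and 0 CPM. For these 3 genes all β1-K794Q-GFP cultures lay under all β1-WT-GFP cultures. Igfbp7, Sdc1, Pcolce2 and Emilin2, also in this group of 13, had 33.1, 27.9, 27.4 and 21.1 CPM in WT C. Of 36 measured genes in a wider list of matrix proteins and proteoglycans at 20 CPM or more in WT C, 11 were chosen, beside 1.48% of all 7073 genes. The median ratio was 2.24, beside 0.938 over all 7073. Of 10 collagens 0 were chosen (median ratio 1.9), which says little at a share of 1.48%. A ratio of at least 2 was held by 5 of the 10 collagens and 19 of the 36, beside 9.52% of all 7073 genes.

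Proteases, their inhibitors and their receptors numbered 7. Plaur, the urokinase receptor, had 24.3, 20.7 and 286 CPM in WT A, B and C and 27.4, 63.9 and 11.5 CPM in K794Q A, B and C. Prss23, a secreted serine protease, had 32.1, 38.1 and 477 CPM and then 8.72, 3.93 and 98.9 CPM, and K794Q A and K794Q B were the lowest of the 6 cultures. Mmp2, gelatinase A, had 4, 1 and 675 counts in the β1-WT-GFP cultures and was at 10.1 CPM in K794Q B and 0 in K794Q A and K794Q C. Htra1 and Serpinb9b had 131 and 562 CPM in WT C, and Serpinb9b also reached 174 and 313 CPM in K794Q A and K794Q B.

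Cd109, a surface protein that binds TGF-beta and is placed with the protease inhibitors by its sequence family (chr9:78615546-78716253), differed from the rest of the 105. It had 4.03, 4.9 and 62.7 CPM in WT A, B and C and 70.6, 84.7 and 93.4 CPM in K794Q A, B and C. All 3 β1-K794Q-GFP cultures were thus over WT C, which no other of the 105 genes showed.

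Secreted signals formed a group of 13. Cxcl12, the chemokine that binds Cxcr4, had 6.14, 6.36 and 720.2 CPM in WT A, B and C and 9.7, 39.6 and 184 CPM in K794Q A, B and C. Edn1, the precursor of the vasoconstrictor endothelin-1, had 0.824, 1.46 and 220.0 CPM and then 0.49, 0.357 and 25.4 CPM. Apln, the ligand of the apelin receptor on endothelium, had 37.3, 43.0 and 1030.0 CPM and then 311, 356 and 682 CPM. For Apln the β1-K794Q-GFP cultures were 7.17, 8.2 and 15.7 times the higher of WT A and WT B, while Edn1 was above both in K794Q C alone.

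Growth factors of several families were in the same group. Pdgfb, which recruits pericytes, had 2.75, 3.96 and 176 CPM in the β1-WT-GFP cultures and 14.1, 13.4 and 149 CPM in the β1-K794Q-GFP cultures, and C was the high culture of each form. Tgfb2, a TGF-beta ligand, had 4.67, 5.01 and 43.9 CPM and then 15.5, 4.29 and 81.5 CPM, so that K794Q C exceeded WT C. Bmp4 and Bmp6, ligands of the same superfamily, and Fst, which binds activins, had 174, 85.1 and 321 CPM in WT C, where they were highest of the 6 cultures. The ErbB ligands Hbegf and Nrg1 had 82.8 and 59.3 CPM there, the semaphorins Sema3e and Sema3c 76.2 and 66.3 CPM, and the pentraxin Nptx1 1304 CPM. Of 23 secreted growth factors at 20 CPM or more in WT C, 10 were chosen, with a median ratio of 2.99, beside 1.48% of all 7073 genes at that level. Of 36 receptor tyrosine kinases and growth factor receptors 0 were chosen (median ratio 1.15), which says little at that share.

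Receptors and adhesion molecules numbered 14. Cd44, the receptor of hyaluronan, had 18.5, 22.4 and 397 CPM in WT A, B and C and 101, 110 and 56.3 CPM in K794Q A, B and C. Cdh2, N-cadherin, had 5.77, 9.07 and 105 CPM and then 21.0, 52.1 and 15.4 CPM. All 3 K794Q levels of both genes fell between WT C on the high side and WT A and WT B on the low side. Lrp1, an endocytic receptor, had 1.74, 1.04 and 70.3 CPM and then 94.4, 24.5 and 36.9 CPM, with K794Q A the highest of the 6. Kirrel and Pcdh7, both cell adhesion proteins, Tnfrsf12a, the receptor of the cytokine TWEAK, Lgals3, a galectin, and Cd24a had 253, 161, 83.7, 84.6 and 86.1 CPM in WT C. Ptprn, Gprc5a, Ly75, Csmd3, Msln and C3ar1, the receptor of complement C3a, had 22.1 to 67.4 CPM. In a list of cadherins and other adhesion molecules 3 of 46 genes were chosen, and the median ratio was 1.21.

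Transcription factors and their co-regulators numbered 10, and the immediate early genes Egr1 and Fos had the highest ratios among them. Egr1 had 3.02, 2.61 and 298 CPM in WT A, B and C and 2.16, 6.43 and 1.81 CPM in K794Q A, B and C, which left WT C alone. Fos had 0.55, 0.417 and 50.2 CPM and then 1.47, 6.43 and 0.994 CPM, Fosb 1.65, 1.46 and 53.8 CPM and then 6.37, 6.7 and 1.36 CPM, and Fosl1 3.48, 4.17 and 102 CPM and then 13.5, 18.3 and 8.85 CPM. In each of these 4 genes K794Q B was the highest of the K794Q form, though far under WT C. Other genes of the immediate early list, which was written after the values were seen, were spread more widely. Of 16 at 20 CPM or more in WT C, 8 had a ratio of at least 2, as had 673 of all 7073 genes (9.52%). By the way the list was made, this count is a description. The ratio was 1.39 for Jun and 0.424 for Jund, which encode partners of Fos, and 0.93 for Fosl2, itself of the Fos family.

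Ankrd1, a nuclear protein induced by stretch, had 3.02, 3.34 and 181 CPM in the β1-WT-GFP cultures and 5.98, 5.63 and 10.6 CPM in the β1-K794Q-GFP cultures. Ajuba, a LIM protein that restrains the Hippo kinases, had 8.24, 8.34 and 99.6 CPM and then 10.1, 21.3 and 14.9 CPM. Both were lowest in WT A and WT B. Runx1, Aff3, Etv4 and Smad6, an inhibitor of BMP signals, completed the group with 50.1, 43.1, 30.9 and 54.4 CPM in WT C.

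The Yap targets that the study lists, a list its authors used on these cultures and which is therefore no independent evidence, held 15 genes at 20 CPM or more in WT C. Of these, 5 were chosen (Ctgf, Cyr61, Ankrd1, Dock5 and Tgfb2), 9 had a ratio of at least 2, beside the 9.52% of all genes, and the median ratio was 3.21. Amotl2, Gadd45a and Myof, with ratios of 3.21, 6.17 and 4.78, fell short of the rule, and Lats1, a kinase upstream of Yap, had a ratio of 0.829. The TGF-beta and ERK lists were written after the values were seen, so their counts and medians are a description and no evidence. Among 12 TGF-beta response genes at that level 4 were chosen, beside 1.48% of all 7073 genes. Smad6 and the ligands Bmp4 and Bmp6 were among them, and the median ratio was 2.84, beside 0.938 over all 7073. Smad7, with 14.2, 10.8 and 98.2 CPM in WT A, B and C, came close at 6.72. Among 11 ERK output and feedback genes 3 were chosen (Fosl1, Etv4 and Phlda1), beside the same share of all genes, with a median ratio of 1.16. Dusp6 and Spry2, feedback inhibitors of that pathway, had ratios of 0.961 and 1.01. The interferon response and antigen presentation list stood at the other end, with 25 of 25 genes under a ratio of 1 and a median of 0.165, beside 3990 of all 7073 genes (56.4%) under a ratio of 1.

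**Figure D2:**
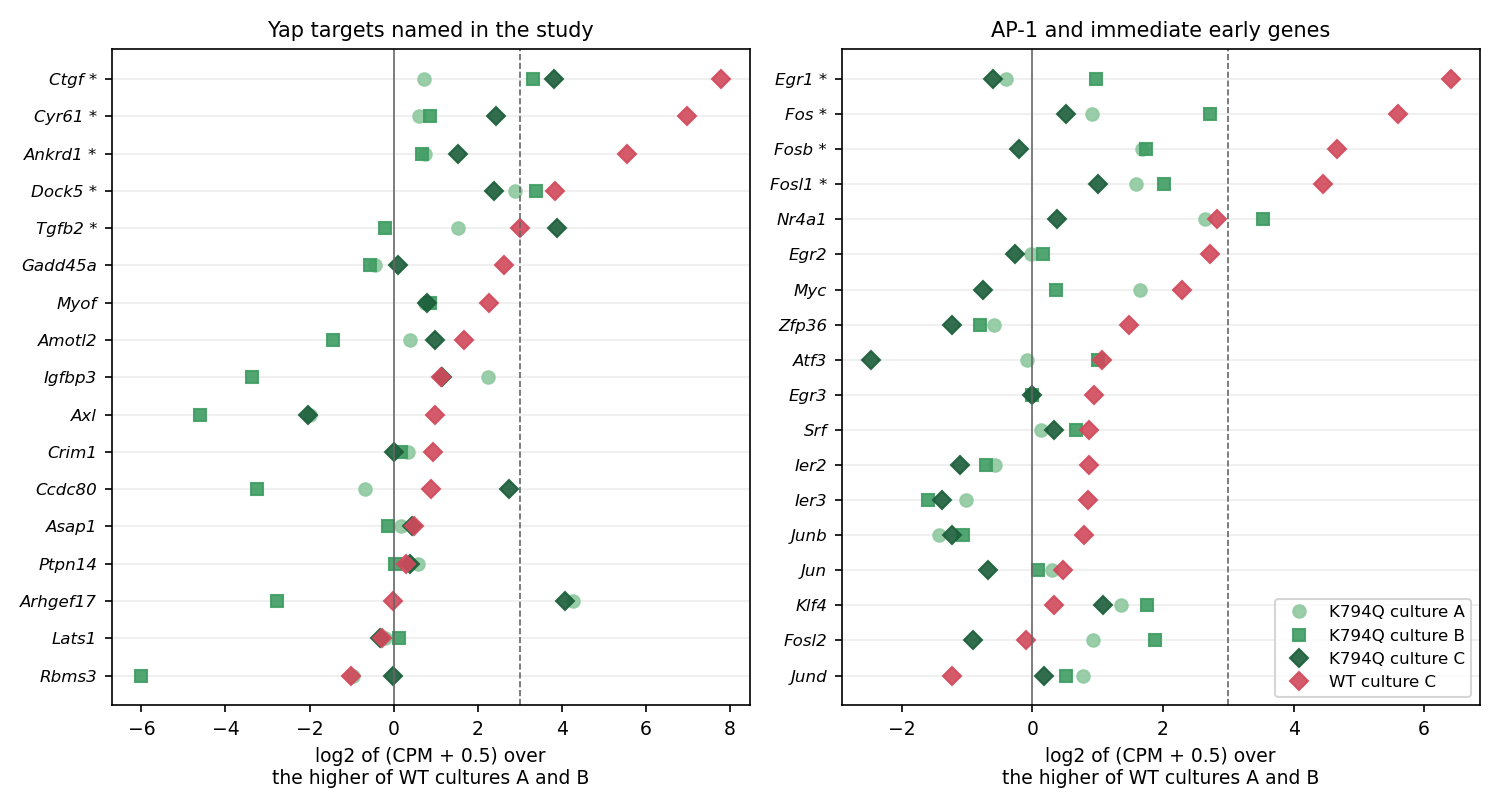
Log2 of the level (CPM plus 0.5) in 4 cultures over the higher of WT A and WT B for Yap targets listed by the study (left) and immediate early genes (right), with an asterisk for the chosen genes, a solid line at equality and a dashed line at 8 times. In the upper rows WT C (red) lies to the right of the green β1-K794Q-GFP cultures for most genes, with Tgfb2 and Nr4a1 among the exceptions, and in the lower rows the cultures mix.

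The largest group, of 25 genes, acts in the cytoskeleton, in trafficking and in signalling. Ahnak, a giant scaffold protein under the plasma membrane (chr19:8989284-9076914), had 365, 293 and 6086 CPM in WT A, B and C and 1237, 2181 and 2281 CPM in K794Q A, B and C. Cav1, the coat protein of caveolae, had 114, 141 and 1189 CPM and then 532, 379 and 496 CPM. In both genes the β1-K794Q-GFP cultures sat together between the low and the high β1-WT-GFP cultures. Nedd9, a scaffold of focal adhesions, had 42.6, 50.6 and 445 CPM and then 97.5, 201 and 174 CPM, and Palld, an actin cross-linker, 23.1, 27.8 and 321 CPM and then 35.9, 66.1 and 110 CPM, again with the K794Q cultures in between. Rgs2, which shortens G protein signals, had 34.8, 32.0 and 325 CPM and then 22.5, 7.23 and 612 CPM, so that K794Q A and K794Q B were the lowest and K794Q C the highest of the 6. Phlda1, an ERK-induced gene, was highest in K794Q B, at 85.5 CPM against 52.1 CPM in WT C. Stmn2, a microtubule destabiliser, had 257 CPM in WT C and 8.43, 0 and 7.68 CPM in K794Q A, B and C, under the 16.6 and 22.4 CPM of WT A and WT B. Dock5, which activates the GTPase Rac, had 2.47, 3.02 and 50.1 CPM in the wildtype form and 25.5, 36.4 and 18.1 CPM in the K794Q form, and Wwc1 was at or under 0.196 CPM in every culture but WT C, where it had 23.3 CPM. The other 16, among them Rgs16, the kinase Camk4 and the actin nucleator Cobl, had 20.6 to 266 CPM in WT C, where each was highest of the 6.

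Enzymes, channels and transporters numbered 17. Ptgs2, the inducible cyclooxygenase of prostaglandin synthesis, had 8.61, 17.1 and 296 CPM in WT A, B and C and 125, 25.9 and 10.6 CPM in K794Q A, B and C. Ddah1, which breaks down an inhibitor of nitric oxide synthase, had 2.11, 2.5 and 126 CPM and then 5.19, 13.0 and 22.6 CPM. Of the β1-K794Q-GFP cultures, K794Q A was thus the highest for Ptgs2 and K794Q C for Ddah1. Uchl1, a ubiquitin hydrolase, had 3.39, 3.23 and 37.7 CPM and then 0.49, 2.95 and 0.542 CPM, all 3 of the latter under all β1-WT-GFP cultures. The channels Ano1, Kcnf1 and Aqp1 had 69.5, 43.9 and 56.3 CPM in WT C, and the transporters Slc35f1 and Slc14a1 79.6 and 24.0 CPM. The other 9 had 20.9 to 195 CPM there, and all 17 were highest in WT C. Outside the roles above, Fam198b had 29.7, 34.9 and 534 CPM and then 610, 67.0 and 577 CPM, with K794Q A and K794Q C over WT C, and Mfap3l 39.3, 47.1 and 477 CPM and then 123.1, 211 and 49.3 CPM.

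**Figure D3:**
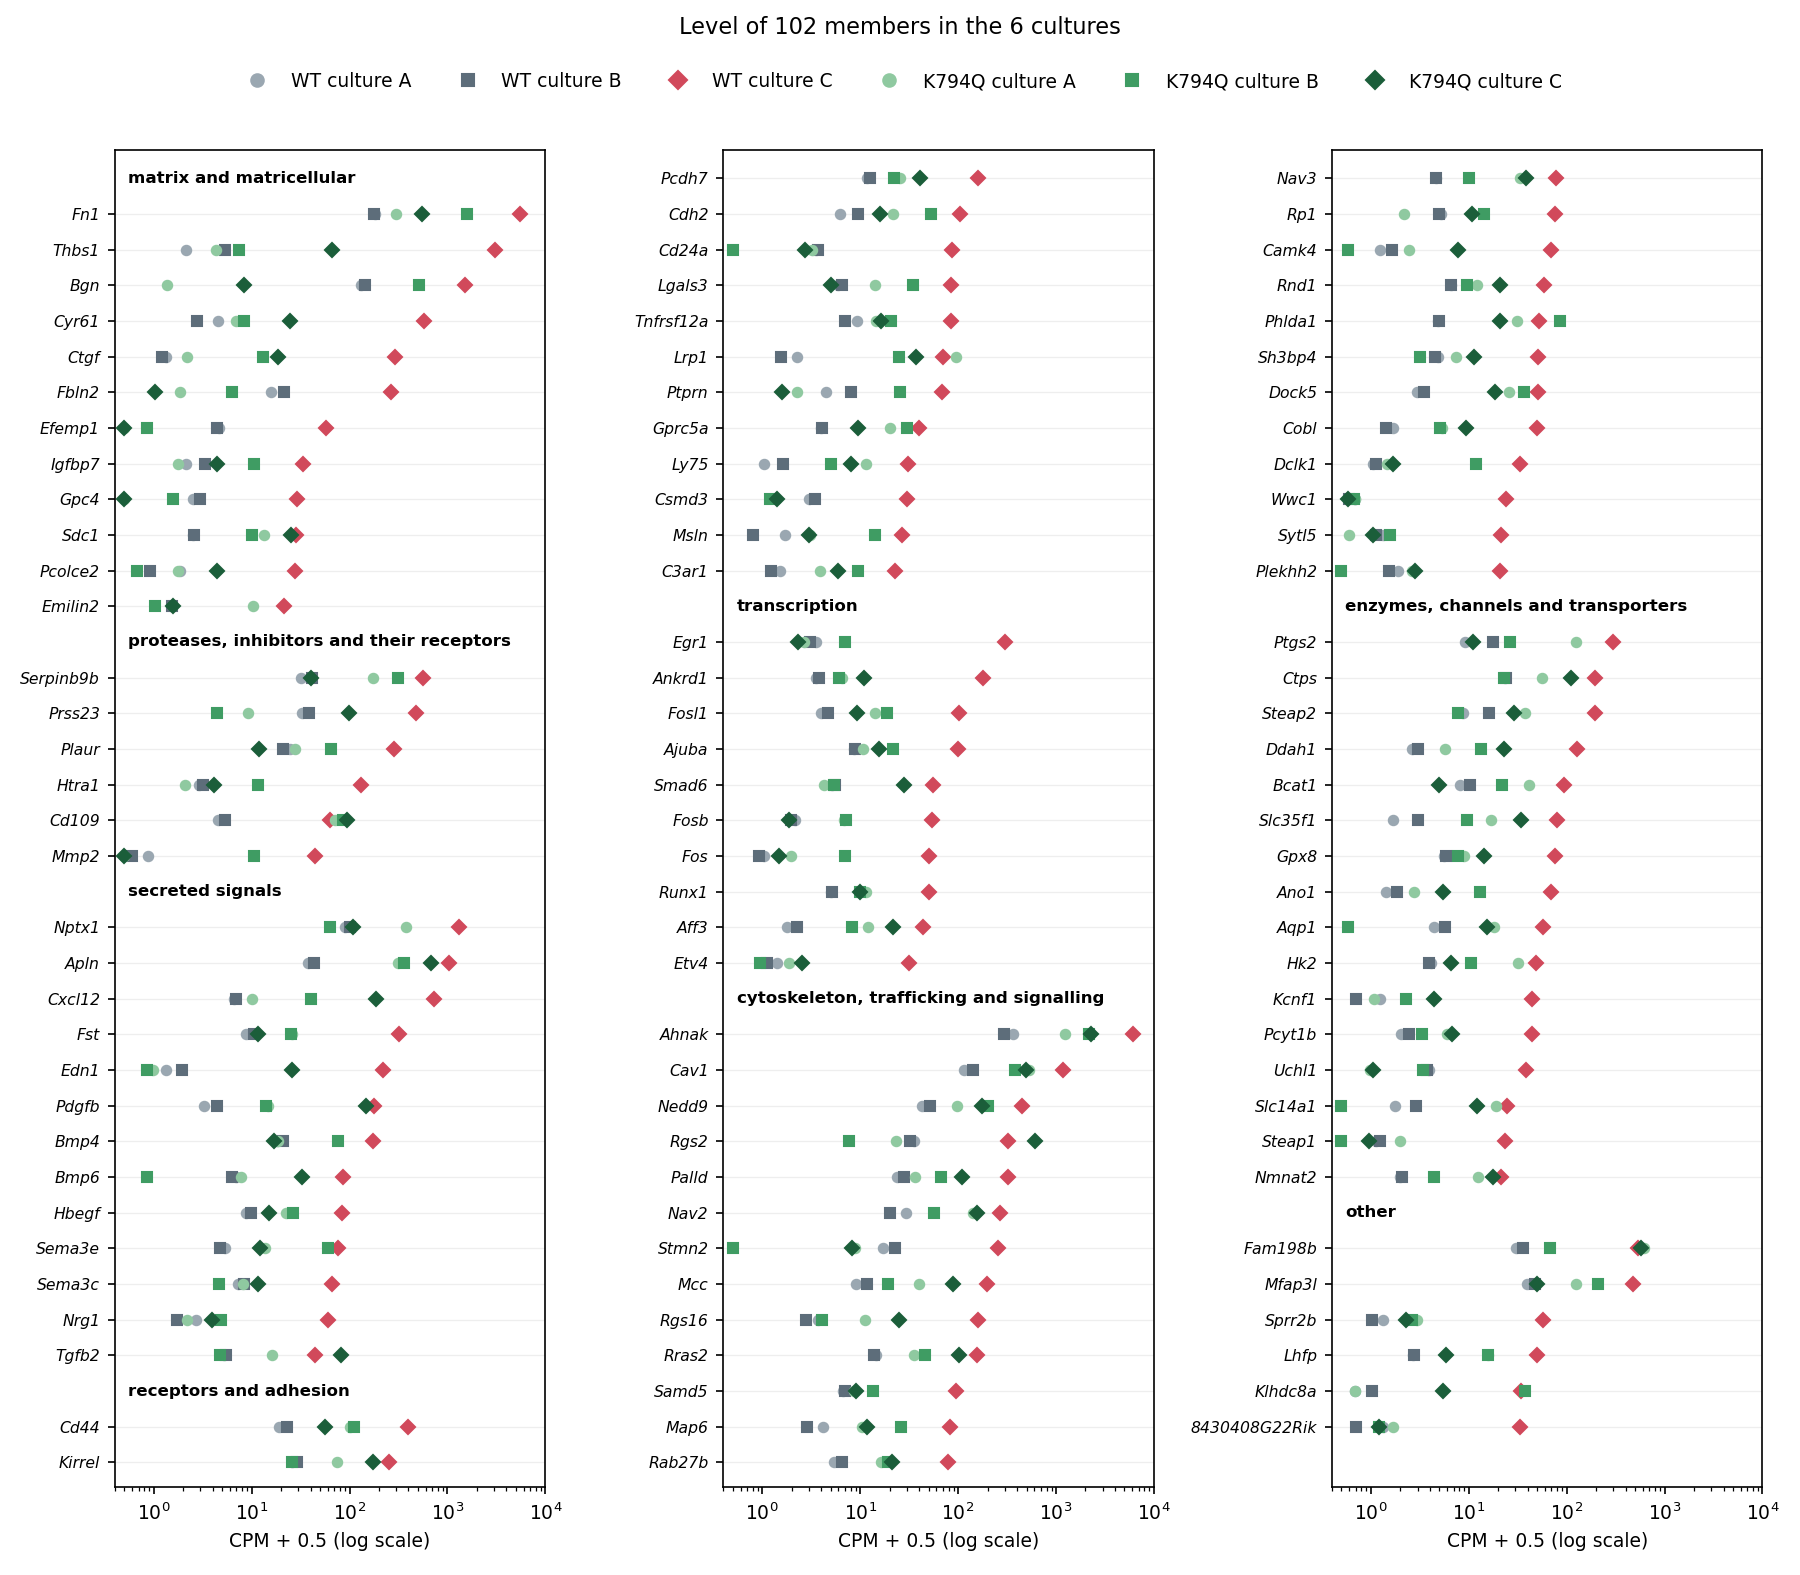
Level of 102 of the 105 genes in the 6 cultures as CPM plus 0.5 (horizontal, log scale), in 3 columns grouped by role and sorted within a role by WT C. Red diamonds (WT C) lie at the right, grey symbols (WT A and WT B) close together at the left, and green symbols (β1-K794Q-GFP cultures) spread over and sometimes beyond that span.

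Against the β1-K794Q-GFP cultures, not all of these genes were raised in WT C alone. WT C was at least 8 times every other culture for 26 of the 105 genes, and above all 3 β1-K794Q-GFP cultures for 98. The 7 exceptions were Fam198b, Rgs2, Cd109, Lrp1, Phlda1, Tgfb2 and Klhdc8a. For 51 genes all 3 β1-K794Q-GFP cultures lay between WT C and the higher of WT A and WT B, and for 8 genes all 3 lay under both WT A and WT B. The rule required a high WT C and low WT A and WT B, which favours other cultures lying in between. These counts were not set against a share over all genes and are a description.

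In the β1-K794Q-GFP cultures, 77 of the 105 genes were above both WT A and WT B in K794Q A, 74 in K794Q B and 82 in K794Q C. The median log2 ratio to the higher of WT A and WT B was 0.92, 1.11 and 1.24, beside -0.10, -0.17 and -0.08 over all genes at 20 CPM or more in that culture. The rule required low values in WT A and WT B, which are the reference here too, so these counts and medians are a description. The counts above both were not set against a share over all genes. At 20 CPM and 8 times both WT A and WT B, 3 of the 105 genes were found in K794Q A, where 0.526% of 7408 genes met this limit, 8 in K794Q B, where 1.45% of 6881 did, and 14 in K794Q C, where 0.806% of 7569 did. In all, 19 genes met it in at least 1 culture and 2, Lrp1 and Cd109, in all 3.

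**Figure D4:**
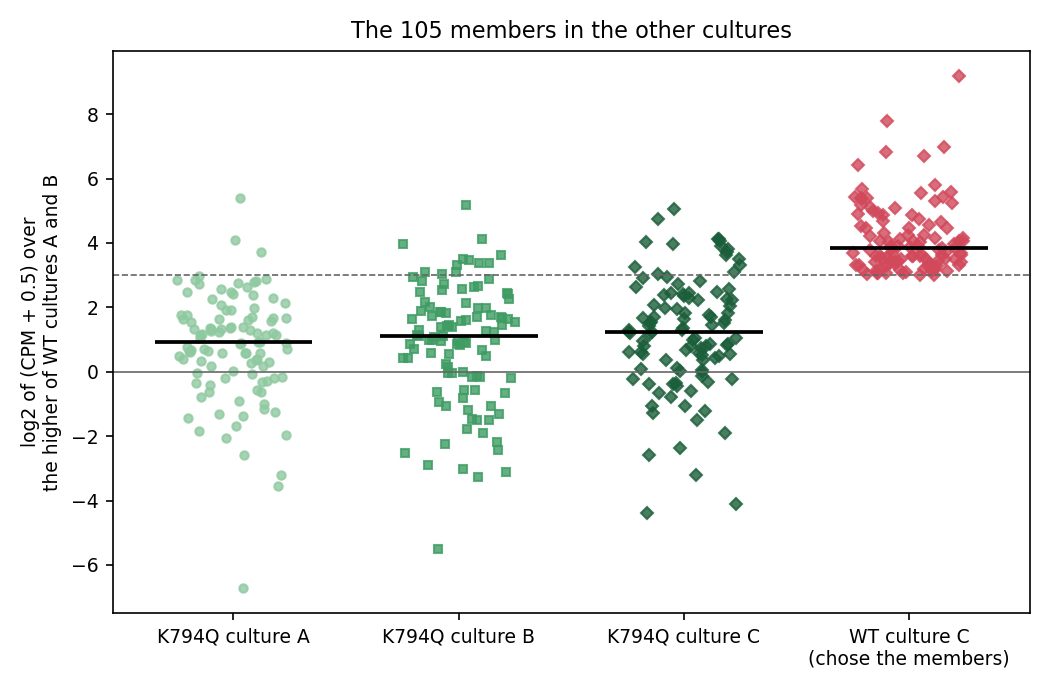
Log2 of the level (CPM plus 0.5) over the higher of WT A and WT B for the 105 genes, 1 point per gene, in the 3 β1-K794Q-GFP cultures and in WT C, with black bars at the medians, a solid line at equality and a dashed line at 8 times. The β1-K794Q-GFP medians are 0.92, 1.11 and 1.24 with points on both sides of equality, and WT C lies above the dashed line because of the choice.

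The genes also varied among the β1-K794Q-GFP cultures, which the rule did not use. Of the 58 genes at 20 CPM or more in at least 1 of these cultures, 15, or 25.9%, differed at least 8-fold between the highest and the lowest of them, beside 303 of 8099 genes, or 3.74%. The highest of the 3 was K794Q C for 43 of the 105 genes, K794Q B for 42 and K794Q A for 20. By role, K794Q C was highest for 14 of the 25 cytoskeletal, trafficking and signalling genes and K794Q B for 8 of the 14 receptors. No single β1-K794Q-GFP culture thus carried the whole set.

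Between the forms, edgeR's quasi-likelihood test was run on the 6 cultures. The study's thresholds, a 2-fold change and an unadjusted p no larger than 0.05, were met by 603 of 11608 tested genes (5.19%), 404 higher in β1-K794Q-GFP cells (3.48%) and 199 lower (1.71%). Of the 105 genes 99 were tested, and the test left out 6 for low counts, among them Mmp2, Steap1, Sytl5, Wwc1 and 8430408G22Rik. The thresholds were met by 6 of the 99, all lower in β1-K794Q-GFP cells. Since the β1-WT-GFP values chose the genes, and WT C widens the spread of that form by the same choice, nothing is read from this number. The 6 were Efemp1, Csmd3, Fbln2, Gpc4, Stmn2 and Uchl1, with log2 fold changes from -7.37 (SE 1.82) for Efemp1 to -3.46 (SE 1.35) for Uchl1. None had a Benjamini-Hochberg adjusted p under 0.05 in that edgeR fit, where 21 of all genes did (0.181%), and the smallest was 0.212, that of Efemp1. By edgeR's likelihood ratio test 3 of the 99 were under that limit, beside 318 of all genes (2.74%). By DESeq2 the number under that limit was 0, beside 477 of the 11487 genes with a p (4.15%). DESeq2 gave no p for 121 of all 11608 genes, and 61 of these were among the 99, so nothing is read from this 0. Without WT C, 54 of 99 genes met the thresholds, 51 of them higher in β1-K794Q-GFP cells, beside 992 of 11844 genes (8.38%), 709 of them higher (5.99%). The rule had chosen the genes for low values in WT A and WT B, which are the remaining β1-WT-GFP cultures, so nothing is read from this number either. Of the 6 genes above, Efemp1, Csmd3 and Fbln2 still met the thresholds as lower in β1-K794Q-GFP cells without WT C, and Gpc4, Stmn2 and Uchl1 no longer did, with log2 fold changes of -2.44, -1.82 and -1.15.

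In the genome the 105 genes were spread over every chromosome except Y. By number chromosome 1 held the most, 12 of its 447 genes at 20 CPM or more in WT C (2.68%), and by share chromosome 18, 7 of 204 (3.43%), while chromosome 4 had 1 of 427. Some lay within 1 Mb of each other. Steap2 and Steap1, related metalloreductases, were 41.7 kb apart on chromosome 5, and Cyr61 and Ddah1 109 kb apart on chromosome 3, both with no other gene at 20 CPM or more between them. Rgs16 lay 621 kb from Nmnat2, an enzyme of NAD synthesis, on chromosome 1, Edn1 814 kb from Nedd9 on chromosome 13, Lgals3 977 kb from Bmp4 on chromosome 14, Cxcl12 516 kb from 8430408G22Rik on chromosome 6 and Palld 835 kb from Mfap3l on chromosome 8. The genes in between had a median ratio of 2.38 across the 3 between Nmnat2 and Rgs16, 1.61 across the 4 between Mfap3l and Palld, 0.988 across the 8 between Bmp4 and Lgals3 and 1.05 across the 2 between Nedd9 and Edn1. A ratio of at least 2 was held by 2, 2, 1 and 0 of them.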

How the data were processed

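Total RNA of 3 β1-WT-GFP and 3 β1-K794Q-GFP cultures (WT A, B and C and K794Q A, B and C) of eEnd2 cells was depleted of ribosomal RNA and sequenced. Per the labels, the authors used bcl2fastq 2.20.0, STAR 2.7.4a, HTSeq 0.9.1 and edgeR 3.38.4 with mm10, and they deposited raw counts of reads per gene symbol. The strand setting of the counting is not given in the sources used here, so a gene and an overlapping one cannot be told apart. The study describes 2 sequencing runs of the samples, of which 1 table was analysed here, with 0 further columns. Totals of 9589826 to 15287191 counts put the limit behind a count of 0, 3 counts, at 0.196 to 0.313 CPM, which covers counting error only.

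CPM is the count times 1000000 over the column total. The 105 genes and all gene lists and roles were chosen with earlier results of these data known, and the Yap, immediate early, ERK and TGF-beta lists and the roles after the values were seen. Named genes were the 20 highest in WT C, the 10 highest ratios, members of the gene lists, the 10 highest in β1-K794Q-GFP cells, those past both thresholds, those at the limits and those within 1 Mb of each other, and others were named for their role after their values were seen. Counts were tested with edgeR 4.0.16 in R 4.3.3 (filterByExpr, TMM, two-sided quasi-likelihood F-test, Benjamini-Hochberg adjustment over 11608 genes, common dispersion 0.186), first tested on simulated data. SEs of log2 fold changes were obtained as the absolute change over the root of F. Positions came from GENCODE M21 (GRCm38), where 102 of the 105 genes matched by symbol and 3 through a synonym. WT A and WT B differed beyond sampling noise (chi-square per degree of freedom 10.1 over 11427 genes) and were kept as separate cultures. Alternatives were other limits of the rule, TMM-scaled CPM, other filters, RLE, DESeq2 1.42.0, the likelihood ratio test, a block by culture letter and leaving out each culture. Some of the 105 genes are not reported here. Figures were drawn with matplotlib 3.10.9.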

Additional observations from a re-analysis of the deposited data

How the results depend on the processing

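With a ratio of at least 4 the rule chose 205 genes, and with 16 it chose 46. TMM-scaled CPM, 0.1 in place of 0.5, limits of 10 and 40 CPM, and leaving out WT A or WT B gave 112, 108, 124, 83, 113 and 114 genes, and each of these except 40 CPM kept all 105. The 19 genes at 8-fold in a K794Q culture were 21 and 22 with TMM-scaled CPM and with 0.1 added. The number of the 105 genes past both thresholds between the forms, 6, was 11 with no filter on low counts (916 of all genes), 1 with at least 10 counts in every culture, 16 with the likelihood ratio test and 0 with DESeq2, which gave no p for 61 of the 99 and found 0 at an unadjusted p of at most 0.05. With each culture left out in turn it ranged from 2 to 54, and over all genes from 501 to 992. It was 2 without K794Q A, 12 without WT A, 16 without WT B and 54 without WT C, and over all genes 942 without K794Q B and 992 without WT C. The fit with the culture letter as a replicate block gave 7 of the 105 genes and 571 of all genes. Cultures with the same letter deviated from their group means with correlations of 0.0947, 0.0548 and 0.0952, so the letters were taken as names and not as pairs. The median log2 fold change of the tested members of the 105, -1.12, was 0.18 with that block and 1.84 without WT C, the last by a choice that required low values in WT A and WT B. The depth leaves genes under 0.313 CPM unresolved, and the choice of 1 culture rests on 1 library, with no replicate of it.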
